A study of Homo sapiens with 14 samples.

Results

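The late phase of a proliferation screen in A549 cells, from day 20 to day 30 of culture, was examined. It comprised 4 libraries, 2 of each day, out of the 7 libraries of the A549 screen and the 14 samples listed for the whole series. They were selected by cell line and day alone, and every one of the 9077 sgRNAs of the pool was measured in each of them. A549 is a lung carcinoma line. The cells carried FNLS-BE3, a cytosine base editor expressed from an integrated lentiviral vector with a puromycin resistance gene, and had then received the pooled sgRNAs by lentivirus at a low multiplicity of infection, with blasticidin selection before day 0. The cells of days 20 and 30 shared all of this and differed in the time in culture. No A549 culture without the editor was analysed here, so the 1000 non-targeting sgRNAs within each library served as the control. Libraries of a day were called biologically independent by the authors, whose methods describe cells kept and passaged after day 0 and leave the meaning of the replicate number unstated. The p values given therefore measure only the spread between these libraries. The values are abundances of sgRNAs in genomic DNA and hold no transcripts, so the identity of the cells could not be checked against marker genes.

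In such a screen each integrated sgRNA serves as a tag of the cells that carry it. A cytosine base editor converts C to T within a short window of the site an sgRNA directs it to, and where the change turns a codon into a stop codon the protein is cut short. If the loss slows division, the tag becomes rarer with every passage, and if the loss speeds division, it becomes more frequent. A tag can also drift with no effect of its own, because every passage and every harvest samples a limited number of cells. Non-targeting sgRNAs show how far tags move without a target. N6-methyladenosine (m6A) is a methyl mark on adenosines of RNA, placed mostly within short motifs and read by proteins that affect splicing, translation and decay of the transcript.

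Of the 9077 sgRNAs, 7999 (88.1%) carried the ID of an m6A site, 1000 (11.0%) were non-targeting and 78 (0.859%) were named after a gene, the safe-harbor locus AAVS1 or the puromycin resistance gene. The m6A-targeting sgRNAs belonged to 6027 site IDs, of which 1545 had 2 or more sgRNAs. The letters in their IDs were GAC for 5599 sgRNAs and AAC for 2400. No sequence of an sgRNA is given here, and m6A-targeting sgRNAs are identified by the ID of the deposited table. The day 20 libraries held 16240834 and 16183343 reads and the day 30 libraries 15168152 and 16041466, so depth differed little between the days. The median sgRNA had between 1532 and 1674 reads in each of these 4 libraries. All log2-fold changes (LFCs) below are log2((day 30 + 1)/(day 20 + 1)) of the normalized counts. They were computed within replicate 1 and within replicate 2 and then averaged. An LFC of −1 is a halving.

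The distribution of sgRNA levels widened between day 20 and day 30 in all classes of sgRNA, the non-targeting controls included. The SD of log2(normalized count + 1) over the non-targeting sgRNAs was 0.589 and 0.616 in the replicates of day 20 and 0.710 and 0.732 in those of day 30. Over the m6A-targeting sgRNAs it was 0.598 and 0.597 at day 20 and 0.720 in both replicates of day 30. Over the gene-named sgRNAs it was 0.922 and 0.912 at day 20 and 1.469 and 1.131 at day 30, and without *MYC* it was 0.785 and 0.771 at day 20 and 0.911 and 0.902 at day 30. Both day 30 libraries thus lay above both day 20 libraries in each class, by 0.118 on average in the non-targeting sgRNAs, by 0.122 in the m6A-targeting ones and by 0.383 in the gene-named ones. In the non-targeting and m6A-targeting sgRNAs the replicates of a day differed from each other by far less, whereas in the gene-named sgRNAs the day 30 replicates were nearly as far apart as the days. With 2 libraries against 2, an exact two-sided permutation test over the libraries gave p = 0.3333 for each class, which is the smallest value that its 6 arrangements allow. In the 2 earlier intervals together the increase was smaller, since the SD over all sgRNAs was 0.558 at day 0, 0.576 and 0.577 at day 10, 0.602 and 0.603 at day 20, and then 0.729 and 0.727 at day 30.

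Both ends of the distribution took part in the widening. In the day 20 libraries 66 and 68 sgRNAs had a normalized count below 500, and in the day 30 libraries 181 and 171 did. A count below 200 was found for 2 and 4 sgRNAs at day 20 and for 13 in each library of day 30. At the other end, 93 and 86 sgRNAs lay above 4000 at day 20, and 166 and 167 at day 30. The lowest count in each library went from 139 and 95.1 at day 20 to 9.57 and 40.3 at day 30, the last of which correspond to 9 and 40 reads. No sgRNA was lost from a library.

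**Figure D1:**
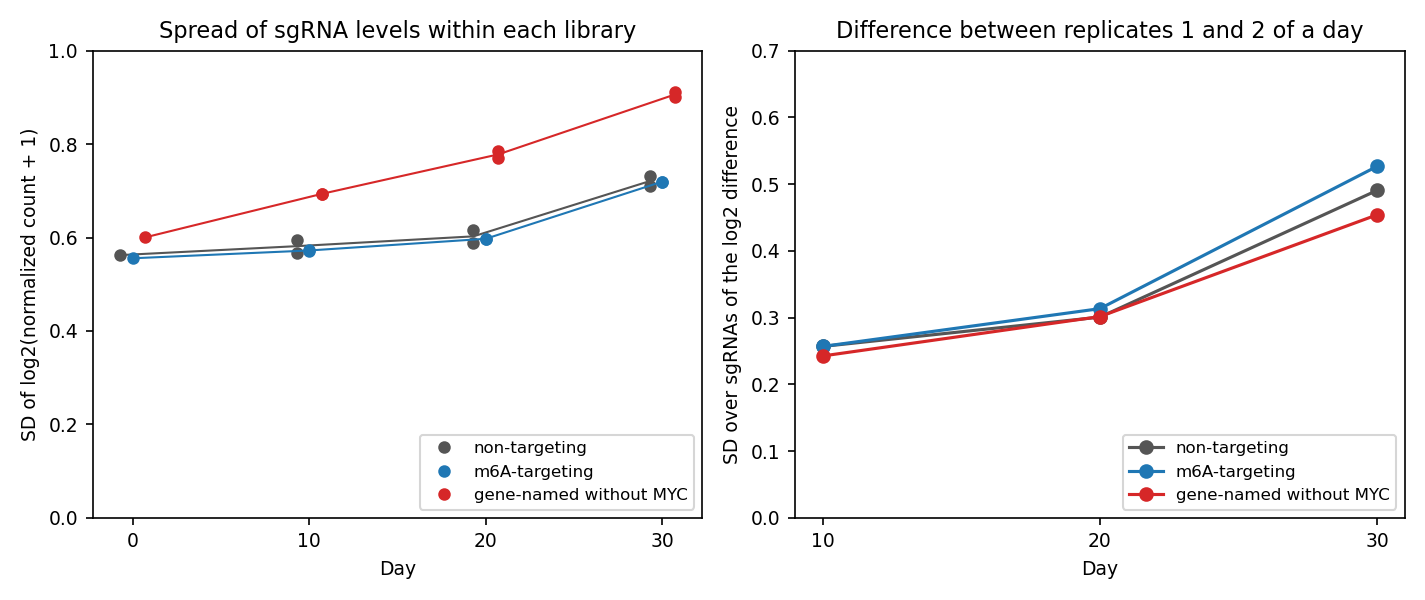
Left, SD over sgRNAs of log2(normalized count + 1) in each library (points; lines join the means of a day) by day, for non-targeting, m6A-targeting and gene-named sgRNAs without those of MYC. Right, SD over sgRNAs of the log2 difference between replicates 1 and 2 of a day. In both panels the steepest segment for the non-targeting and m6A-targeting sgRNAs runs from day 20 to day 30, where the right panel ends at 0.491 for the non-targeting and 0.527 for the m6A-targeting sgRNAs.

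The replicates also moved apart. The SD of the log2 difference between replicates 1 and 2 over all sgRNAs rose from 0.257 at day 10 through 0.313 at day 20 to 0.525 at day 30. In the non-targeting sgRNAs it went from 0.301 at day 20 to 0.491 at day 30. Poisson counting of the reads alone would give an SD of about 0.0527 at day 20 and 0.0565 at day 30 at these depths, for reads taken as independent, and its part in the difference was not tested. The number of sgRNAs whose replicates differed by more than 1 on the log2 scale grew from 10 (0.110%) at day 10 and 39 (0.430%) at day 20 to 510 (5.62%) by day 30. Of the 510, 41 were non-targeting. The differences of day 20 and day 30 went together over the sgRNAs (r = 0.636, n = 9077, a description over sgRNAs of the same 4 libraries), so part of what separated the replicates at day 30 was already there at day 20.

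Most sgRNAs had an LFC near 0 in the late phase. The median LFC of the mean of both replicates was 0.02 for the gene-named, 0.01 for the non-targeting and −0.002 for the m6A-targeting sgRNAs. Its SD was 0.247 over the non-targeting and 0.257 over the m6A-targeting sgRNAs, and 0.501 over the gene-named ones. The larger value of the gene-named class came down to 0.282 without the 4 *MYC* sgRNAs, a calculation added after the values were seen. Within a replicate the SD of the LFC over all sgRNAs was 0.335 and 0.323 from day 20 to 30, against 0.197 in each replicate from day 10 to 20 and 0.273 and 0.265 from day 0 to 10. The late interval was therefore 1.70 and 1.64 times as wide as the one before it, and 1.75 and 1.62 times as wide over the non-targeting sgRNAs. The gene-named sgRNAs without *MYC* had ratios of 1.56 and 1.60, no larger than those of the controls.

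Replicates 1 and 2 share no library in this interval, which allows a direct look at what they have in common. Their late LFCs correlated at r = 0.238 (Spearman's rho 0.223) over all 9077 sgRNAs, at r = 0.257 over the 1000 non-targeting, at r = 0.232 over the 7999 m6A-targeting and at r = 0.429 over the 78 gene-named sgRNAs. Without *MYC* the last value was 0.350. The same correlation was 0.073 from day 10 to day 20 over all sgRNAs and 0.021 over the non-targeting ones. Over the gene-named sgRNAs it was 0.455 from day 10 to day 20, no lower than in the late interval, and 0.173 without *MYC*. In the late interval the LFC had the same sign in both replicates for 57.0% of all sgRNAs, for 57.9% of the non-targeting and for 61.5% of the gene-named sgRNAs. These are descriptions over sgRNAs, which are not independent replicates. The late value of the non-targeting sgRNAs, which have no target, was close to that of the m6A-targeting ones.

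Few sgRNAs had a mean LFC beyond a halving or a doubling. A mean LFC below −1 was found for 12 of the 9077 sgRNAs (0.132%) and one above 1 for 1 (0.0110%). The 12 comprised 2 gene-named sgRNAs, both of *MYC*, 9 m6A-targeting sgRNAs and 1 non-targeting sgRNA. The share was 2.56% of the gene-named, 0.113% of the m6A-targeting and 0.100% of the non-targeting sgRNAs. When each replicate had to pass on its own, 6 sgRNAs remained below −1, of which 1 was gene-named and 5 were m6A-targeting, and the 1 above 1 remained. The counts rested on averaging the replicates. Replicate 1 alone had 53 below −1 and 7 above 1, and replicate 2 alone had 51 and 12. Leaving out a library sets 1 library of a day against the mean of 2, which breaks the pairing by replicate number. Without day 30 replicate 1 the counts were 74 and 28, and without day 30 replicate 2 they were 90 and 23. Without day 20 replicate 1 they were 29 and 6, and without day 20 replicate 2 they were 23 and 7.

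At a less strict threshold of 0.58 on the log2 scale, 193 sgRNAs (2.13%) lay below and 77 (0.848%) above. Among the gene-named sgRNAs 4 of 78 (5.13%) lay below, which were 2 of *MYC* and 2 of *BAP1*, and 0 lay above. The non-targeting sgRNAs had 21 of 1000 (2.10%) below and 8 (0.800%) above, and the m6A-targeting sgRNAs had 168 of 7999 (2.10%) below and 69 (0.863%) above. The shares of m6A-targeting and non-targeting sgRNAs were thus nearly equal, and both were close to the share over all sgRNAs. Of the GAC sgRNAs 125 (2.23%) lay below and 47 (0.839%) above, and of the AAC sgRNAs 43 (1.79%) below and 22 (0.917%) above. Passing 0.58 in opposite directions in the replicates was found for 11 m6A-targeting sgRNAs (0.138%), beside 0.121% over all sgRNAs. No gene-named or non-targeting sgRNA did so, in classes of 78 and 1000 that are small beside such a share.

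limma was fitted to log2(normalized count + 1) of all 7 A549 libraries with the day as a factor, and p values were adjusted by the method of Benjamini and Hochberg over all 9077 sgRNAs. It called 0 sgRNAs lower (0%) and 0 higher (0%) at day 30 than at day 20 at an adjusted p under 0.05, and the lowest adjusted p was 0.876. At an unadjusted p under 0.05 it placed 214 sgRNAs lower and 255 higher, together 5.17% of those tested, of which 55 were non-targeting. The same fit tested whether the change from day 20 to 30 differed from the change from day 10 to 20, and 0 sgRNAs passed after adjustment, with 31 at an unadjusted p under 0.05. Those 31 were 0.342% of those tested, beside 5.17% for the late change, and 0 of them were non-targeting. At so low a share, the lack of calls says little about single sgRNAs. These tests did not use the replicate number, within which the LFCs were taken. Differences between replicates that lasted from day 20 to day 30 therefore counted as spread. No single sgRNA stood out from that spread between libraries. Without day 30 replicate 2, limma called 1 sgRNA lower, which was MYC-2 with an adjusted p of 0.0387. Day 30 was then the 1 library with 9 reads of MYC-2, assumed to vary like the libraries of days 10 and 20. A fit of the 4 libraries of days 20 and 30 with the replicate number as a block left 1 residual degree of freedom. It called 18 of the 9077 sgRNAs lower and 78 higher. Of the 1000 non-targeting sgRNAs it called 0 lower and 8 higher, so higher calls were about as frequent there as over all sgRNAs. The prior degrees of freedom of this fit were infinite, so the variance of an sgRNA came from the trend with abundance and not from its own replicates.

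The *MYC* gene encodes a transcription factor that drives growth and entry into the cell cycle, and 2 of its 4 sgRNAs had the lowest mean LFCs of the late phase. MYC-3 had normalized counts of 143 and 213 in the replicates of day 20 and of 9.57 and 55.4 in those of day 30. Both day 30 values lay below both day 20 values. Its LFC was −3.77 in replicate 1 and −1.92 in replicate 2, with a mean of −2.85 ± 1.31 (SD, n = 2), the lowest of all 9077 sgRNAs. The size of the mean depends on low counts, since replicate 1 of day 30 held 9 reads of MYC-3. With a pseudocount of 10 the mean LFC of MYC-3 was −2.37. MYC-3 was the sole gene-named sgRNA among the 68 examined by name to lie outside the middle 98% of the non-targeting sgRNAs on the same side in both replicates. These limits ran from −0.91 to 0.62 in replicate 1 and from −0.81 to 0.69 in replicate 2. limma gave MYC-3 an SE of 0.81 and an adjusted p of 0.876, and its adjusted p ranged from 0.146 to 0.9997 over the alternatives. Relative to the single day 0 library, MYC-3 stood at 5.77% and 8.56% at day 20 and at 0.385% and 2.23% at day 30.

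MYC-2 divided the replicates. It had 280 in each library of day 20, then 9.57 in replicate 1 and 273 in replicate 2 of day 30. The first of these was 9 reads and the second 271 reads. The LFC was −4.73 in replicate 1 and −0.03 in replicate 2, with a mean of −2.38 ± 3.32 (SD, n = 2), so the position of MYC-2 among the lowest sgRNAs came from replicate 1 alone. In replicate 2 it remained at 18.4% of its day 0 level, after 18.8% at day 20. With a pseudocount of 10 the mean LFC of MYC-2 was −1.96.

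MYC-1 was lower in both replicates by nearly the same amount. Its counts were 625 and 260 at day 20 and 435 and 176 at day 30, and the 2 days overlapped because the replicates already differed at day 20. The LFC was −0.52 in replicate 1 and −0.56 in replicate 2, within the limits of the non-targeting sgRNAs in each. MYC-4 went in opposite directions, from 1258 to 1040 in replicate 1 (LFC −0.27) and from 1575 to 2915 in replicate 2 (LFC 0.89). In replicate 2 it was above the 99th percentile of the non-targeting sgRNAs. By Sanger sequencing, the paper found high editing for MYC-1, MYC-2 and MYC-3 and no editing for MYC-4. The limma adjusted p was 0.945 for MYC-1, 0.876 for MYC-2 and 0.970 for MYC-4.

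**Figure D2:**
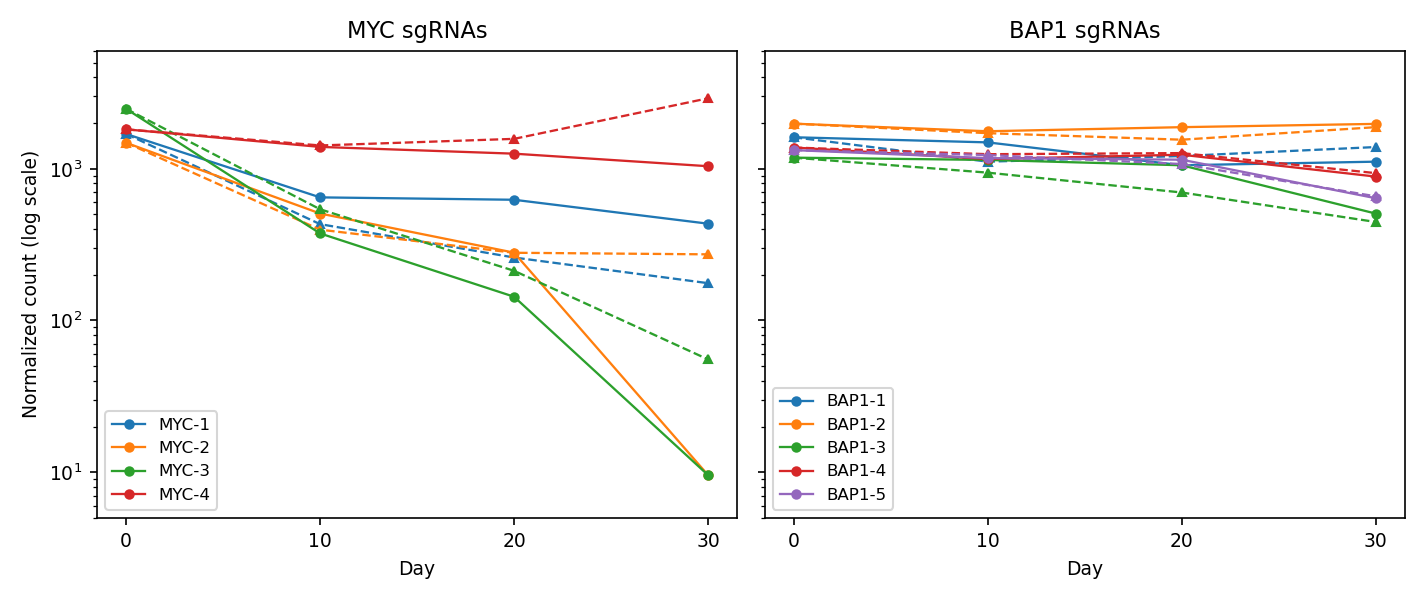
Normalized count on a log scale by day for the 4 MYC sgRNAs (left) and the 5 BAP1 sgRNAs (right), with replicate 1 as solid lines with circles and replicate 2 as dashed lines with triangles, both starting from the single day 0 library. MYC-2 and MYC-3 meet at 9.57 in replicate 1 of day 30, whereas MYC-2 stays at 273 in replicate 2, and BAP1-3, BAP1-4 and BAP1-5 run downward from day 20 to day 30 in both replicates.

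The other sgRNAs below −0.58 among the gene-named class were those of *BAP1*, described after their values were seen. *BAP1* (GRCh37 chromosome 3, 52435024 to 52444024, minus strand) encodes a nuclear deubiquitinase that removes ubiquitin from histone H2A. BAP1-3 had 1055 and 698 at day 20 and 507 and 446 at day 30, with LFCs of −1.06 and −0.64. BAP1-5 had 1148 and 1075 at day 20 and 640 and 659 at day 30, with LFCs of −0.84 and −0.71. For both sgRNAs the values of the 2 days did not overlap, which picking them by their low LFCs made likely. How many of all sgRNAs did so was not counted. BAP1-4 followed with LFCs of −0.48 and −0.44, whereas BAP1-1 and BAP1-2 had means of 0.14 and 0.17. Between day 10 and day 20 the means of the 3 lower sgRNAs had been −0.28 for BAP1-3, which was at −0.43 in replicate 2, −0.12 for BAP1-5 and 0.06 for BAP1-4. The limma adjusted p was 0.876 for each of the 3, and whether their late changes differed from the earlier ones was not shown by the test of the difference (adjusted p = 0.9999 in limma).

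Kinases of the cell cycle and a neuronal kinase formed a group of 12 sgRNAs, 4 each of *CDK2*, *CDK5* and *CDK6*. Their median mean LFC was −0.22, beside −0.0005 over all sgRNAs tested. *CDK6* (GRCh37 chromosome 7, 92234235 to 92465887, minus strand) encodes a kinase that, with D-type cyclins, phosphorylates the retinoblastoma protein in G1. An LFC below 0 in both replicates was found for 28.0% of all sgRNAs and 27.1% of the non-targeting ones. The 4 sgRNAs of *CDK6* were each lower in both replicates. Their mean LFCs were −0.29 for CDK6-1, −0.48 for CDK6-2, −0.13 for CDK6-3 and −0.38 for CDK6-4. Each of these values lay within the limits of the non-targeting sgRNAs. CDK2 drives the passage from G1 into S phase, and CDK2-3 had counts of 1191 and 1061 at day 20 and of 824 and 708 at day 30, with LFCs of −0.53 and −0.58. The sgRNAs of *CDK5*, a kinase best known from neurons, ranged from −0.26 for CDK5-3, whose replicates had opposite signs (−0.79 and 0.27), to 0.28 for CDK5-4. No mean LFC of this group was beyond 0.58, although CDK5-3 in replicate 1 and CDK6-2 (−0.71) and CDK2-3 in replicate 2 were.

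The kinases of transcription were a second such group, in which the median of *CDK9* was below those of *CDK2* (−0.13) and *CDK5* (−0.06). CDK9 releases paused RNA polymerase II as the kinase of P-TEFb, and its 4 sgRNAs had a median of −0.19, with the lowest at −0.33 for CDK9-1. CDK9-4 had been the lowest of them before, at 41.8% of its day 0 level in replicate 1 of day 20, and changed by −0.15 in the late phase. CDK8, a kinase of the Mediator complex, had 4 sgRNAs with means between 0.05 and 0.13. The median over both genes was 0.004.

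Growth signalling was represented by *EGFR*, *BRAF* and *AKT1*. The receptor gene *EGFR* had 2 sgRNAs that were lower mainly in replicate 1, EGFR-2 with −0.67 and −0.08 and EGFR-3 with −0.68 and −0.09, and 1 that was higher mainly in replicate 2, EGFR-1 with 0.17 and 0.75. The latter had a limma adjusted p of 0.0487 in the 4-library fit with the replicate block. *BRAF*, which encodes a kinase of the MAPK cascade, ranged from −0.23 to 0.12. *AKT1*, which encodes a kinase downstream of PI3K, ranged from 0.02 to 0.34, with AKT1-2 the highest at 0.37 in replicate 1 and 0.31 in replicate 2. Over the 13 sgRNAs of the 3 genes the median was 0.02, which is near the median over all sgRNAs. The 4 sgRNAs of *TGFB1*, the gene of a secreted cytokine, ran from −0.41 for TGFB1-4 to 0.28 for TGFB1-1.

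*MYB* is a transcription factor gene of blood progenitors. Its 5 sgRNAs had means between 0.14 for MYB-4 and 0.24 for MYB-1, and 3 of them had opposite signs in the replicates. *BRCA1* and *BRCA2* encode proteins of homologous recombination. Their 10 sgRNAs had a median of 0.04 and ran from −0.27 for BRCA2-1 to 0.52 for BRCA2-4. BRCA2-4 was 1748 and 1630 at day 20 and 2528 and 2326 at day 30, and its LFCs were 0.53 and 0.51. From day 10 to day 20 its LFC had been −0.04 in replicate 1 and −0.0002 in replicate 2.

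The control sgRNAs with a name showed how far sgRNAs of no known effect moved. The 3 sgRNAs of AAVS1, a locus where cutting or editing is tolerated, had LFCs of −0.23 for AAVS1_1, 0.02 for AAVS1_2 and −0.38 for AAVS1_3, and the replicates of each differed by less than 0.1. The puromycin resistance gene is carried by the vector of the editor, and no puromycin was described for the time of the screen. Its 4 sgRNAs ran from −0.06 for puro-Trp(76) to 0.55 for puro-Gln(108). The latter had 2571 and 2252 at day 20 and 3486 and 3576 at day 30, with LFCs of 0.44 and 0.67, the highest mean of all gene-named sgRNAs. In the limma fit over all 7 libraries the adjusted p was 0.876 for puro-Gln(108) and for BRCA2-4. In the fit of 4 libraries with the replicate block it was 0.0185 for puro-Gln(108), which was called higher there, and 0.112 for BRCA2-4.

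**Figure D3:**
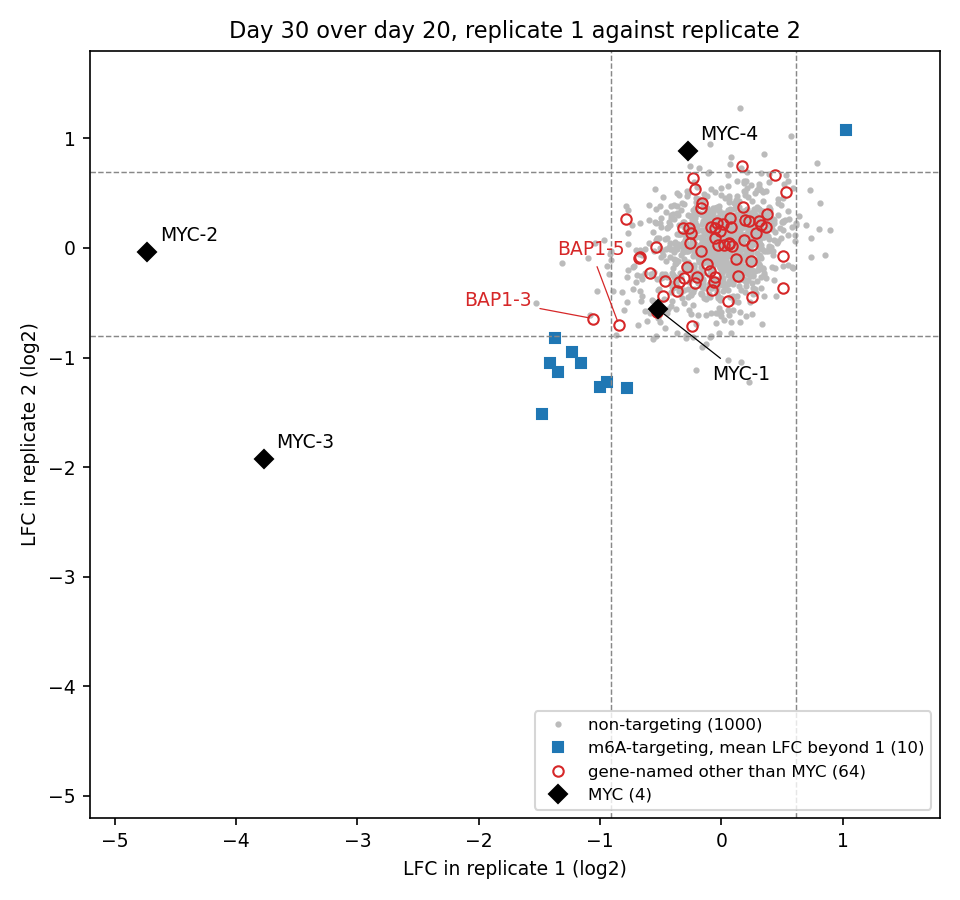
LFC of day 30 over day 20 in replicate 1 (x axis) and replicate 2 (y axis), both log2, for the 1000 non-targeting sgRNAs, the 10 m6A-targeting sgRNAs with a mean LFC beyond 1, the 4 MYC sgRNAs and 64 other gene-named sgRNAs; 10 gene-named sgRNAs and the other m6A-targeting sgRNAs are not drawn. Dashed lines mark the 1st and 99th percentiles of the non-targeting sgRNAs, and MYC-3 lies far beyond both while MYC-2 is far out in replicate 1 only.

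The m6A-targeting sgRNAs beyond 1 were fewer in proportion than those of *MYC*, and their replicates were closer. The lowest was 2bc23548_GAC_2.4, with 328 and 286 at day 20 and 117 and 99.7 at day 30. Its LFCs of −1.48 and −1.51 differed by 0.03, and it stood at 18.8% and 16.1% of its day 0 level at day 30. Its mean LFC from day 10 to day 20 had been −0.61. The next was 2bc10018_AAC_5.5, with 581 and 854 at day 20, 227 and 389 at day 30 and LFCs of −1.35 and −1.13. In this sgRNA the interval before had a mean of 0.21, the opposite sign.

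The sgRNA 2bc35758_GAC_4.4 had 1341 and 1149 at day 20 and 503 and 556 at day 30, with LFCs of −1.41 and −1.05. It began at 1583 at day 0, near the median of that library (1606), and was thus the most abundant of the 5 lowest at day 0. For 2bc25054_GAC_3.8 the counts were 550 and 647 at day 20 and 274 and 269 at day 30, with LFCs of −1.002 and −1.27. For 2bc71_GAC_4.4 they were 811 and 1117 at day 20 and 362 and 538 at day 30, with LFCs of −1.16 and −1.05. In all 5 both values of day 30 lay below both of day 20, which their selection by low LFCs made likely. The share of all sgRNAs whose days separated in this way was not computed. The limma adjusted p was 0.876 for each of the 5. The 4-library fit with the replicate block changed the call for 3 of them, with limma adjusted p values of 0.0419 for 2bc10018_AAC_5.5, 0.00177 for 2bc35758_GAC_4.4 and 0.0232 for 2bc71_GAC_4.4, and left 2bc23548_GAC_2.4 at 0.231 and 2bc25054_GAC_3.8 at 0.108.

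The single sgRNA above 1 was 2bc20931_AAC_2.5. It had 1020 and 1369 at day 20 and 2076 and 2894 at day 30, and its LFCs were 1.02 and 1.08. From day 10 to day 20 its mean LFC had been −0.04, and from day 0 to day 10 it had been 0.03, so the last interval held nearly all of its change. limma gave an SE of 0.24 and an adjusted p of 0.876, and in the 4-library fit with the replicate block the adjusted p was 6.81e-05. The test of the late against the middle change gave an adjusted p of 0.9999 in limma.

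A further 4 m6A-targeting sgRNAs with means between −1.10 and −1.03 are named because they passed the same threshold, after their values were seen. They were 2bc5820_GAC_3.4 (−1.37 and −0.82), 2bc25350_GAC_5.6 (−1.23 and −0.95), 2bc27910_AAC_15.5 (−0.95 and −1.22) and 2bc12476_AAC_6.7 (−0.78 and −1.28). Of these, 2bc5820_GAC_3.4 and 2bc27910_AAC_15.5 were called lower by limma in the 4-library fit with the replicate block, with adjusted p values of 0.0386 and 0.00936. The non-targeting sgRNA NT-925 reached −1.02 ± 0.73 (SD, n = 2), from 376 and 464 at day 20 to 130 and 327 at day 30. It shows that a tag with no target could cross the threshold, here mainly through replicate 1 with an LFC of −1.53 against −0.50. Just inside and just outside the threshold the means were −1.02 and −0.99 at the lower end and 1.05 and 0.97 at the upper end.

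Other sgRNAs with the same site ID were set beside these changes. The m6A-targeting sgRNAs were designed to place the m6A adenosine in the window of an adenine editor. The cytosine editor of this screen converts C, so sgRNAs of a site can change different bases or none. Which bases were changed was not measured. Of the 10 m6A-targeting sgRNAs beyond 1, 6 had at least 1 other sgRNA at their site. The other sgRNA of the site of 2bc23548_GAC_2.4, which was 2bc23548_GAC_2.5, had a mean LFC of 0.13, and that of the site of 2bc10018_AAC_5.5, which was 2bc10018_AAC_5.8, had 0.02. At 2bc25054_GAC_3 the other sgRNA, 2bc25054_GAC_3.7, went from 1333 and 1261 to 2099 and 1878 (LFCs 0.65 and 0.57) while 2bc25054_GAC_3.8 went down. The other sgRNA of 2bc5820_GAC_3 had 0.19, and the 3 others of 2bc27910_AAC_15 had 0.20, −0.16 and −0.35.

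At 1 site of these 6 the other sgRNA was also low. For 2bc12476_AAC_6 the means were −1.03 for 2bc12476_AAC_6.7 and −0.77 for 2bc12476_AAC_6.6, whose counts went from 334 and 547 to 210 and 298. A second site with 2 sgRNAs below −0.58 was 2bc39856_GAC_1, with means of −0.72 and −0.69. These were the 2 sites where more than 1 sgRNA passed −0.58, out of 88 sites with 2 or more sgRNAs and at least 1 past it. Above 0.58 there were 32 such sites, and 0 had more than 1 sgRNA past it. Over the 1174 sites with exactly 2 sgRNAs, the mean LFCs of the pair correlated at r = 0.046, and replicate 1 of one with replicate 2 of the other at r = 0.036, with each pair entered both ways. The signs of the 2 were the same at 606 of these sites (51.6%). sgRNAs of a site share a site ID and their libraries but not necessarily an edit, and these values describe them without a test.

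**Figure D4:**
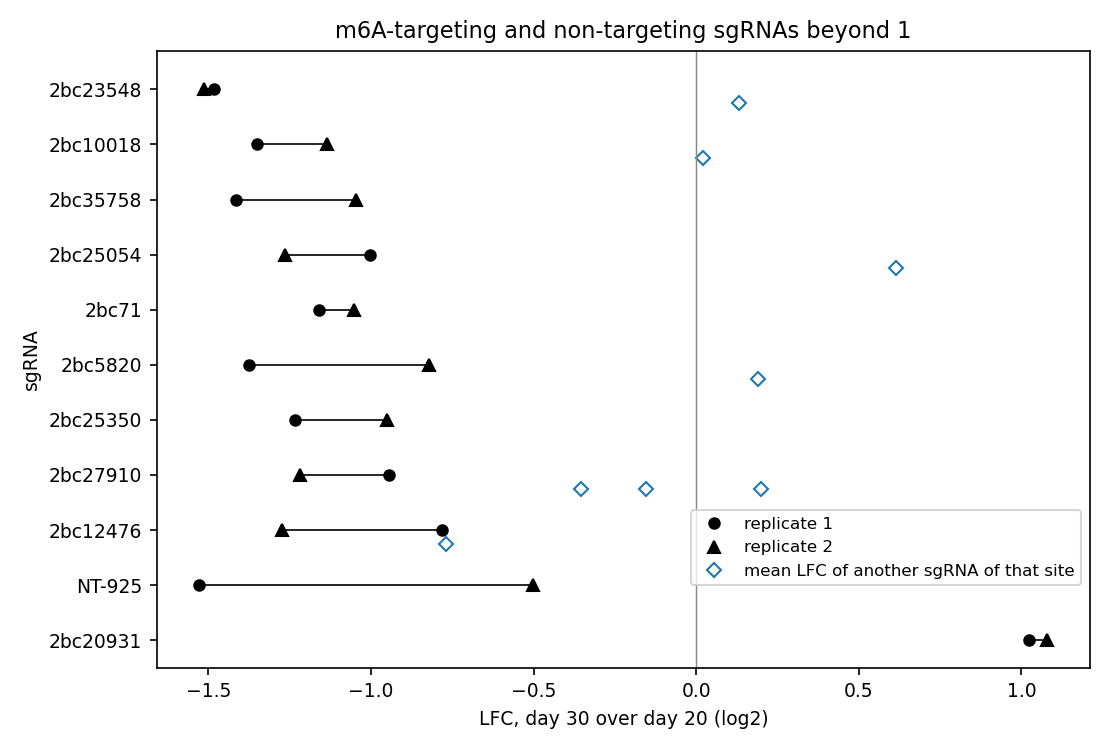
LFC of day 30 over day 20 (log2) for each m6A-targeting or non-targeting sgRNA with a mean beyond 1, with circles for replicate 1, triangles for replicate 2 and a line joining them; sgRNAs are labelled by site number, and open diamonds give the mean LFC of each other sgRNA of that site. The diamonds lie at or above −0.35 for every site but 2bc12476, where the other sgRNA is at −0.77.

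The spread of the late LFC went with the abundance of the sgRNA. In the lowest quartile of the mean normalized count over the 7 libraries the SD of the late LFC was 0.419 and 0.391 in the replicates, and in the highest quartile it was 0.257 and 0.247. The SD of the difference between the day 30 replicates fell likewise from 0.659 to 0.405. A mean LFC beyond 0.58 in either direction was found for 7.45% of the lowest quartile and 0.705% of the highest. In the 205 non-targeting sgRNAs of the lowest quartile the share was 7.32%, and in the 321 of the highest it was 0.623%, much as over all sgRNAs.

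The centre of the LFC moved with abundance too, from a median of −0.10 and −0.09 in the lowest quartile to 0.06 in both replicates of the highest. This quartile uses the day 30 values themselves, which places sgRNAs that fell among the low ones. With quartiles of the day 0 value, a library outside the contrast that was used for this purpose after the data had been seen, the medians ran from −0.01 in both replicates of the lowest quartile to 0.01 and 0.02 in the highest. The gradient in the spread remained, from SDs of 0.394 and 0.388 to 0.278 and 0.253, and the share beyond 0.58 from 6.16% to 0.839%. Of the 193 sgRNAs below −0.58, 102 came from the lowest quartile at day 0 and 11 from the highest.

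**Figure D5:**
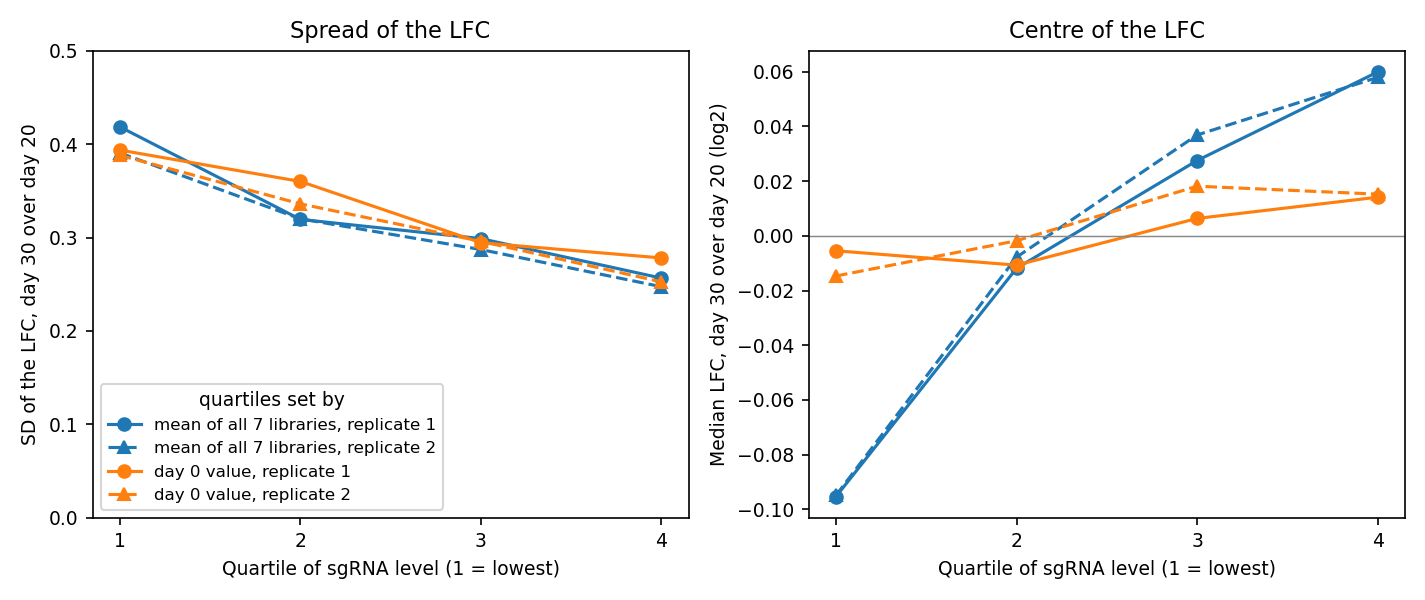
SD (left) and median (right) of the LFC of day 30 over day 20 over all sgRNAs in quartiles of sgRNA level, with quartiles set by the mean of all 7 libraries or by the day 0 value, circles for replicate 1 and triangles for replicate 2. The spread falls from quartile 1 to quartile 4 under both ways of setting the quartiles, whereas the medians under the day 0 quartiles stay between −0.01 and 0.02.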

How the data were processed

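By the study's methods, adapters were removed with Cutadapt and MAGeCK gave a count for each sgRNA, which the authors then normalized. The submitters' processing notes also name CASAVA 1.4; no version of the other tools was found in the sources read. The deposited A549 table holds 1 normalized count per sgRNA and library, treated as a signal, and all values of a library were whole multiples of 1 step within 0.05 reads, which gave the depth. No sample column was left unused (0 columns). Libraries were assigned to days and replicates from their labels, and sgRNAs to classes from their IDs. LFCs used a pseudocount of 1 and no filter. limma 3.58.1 in R 4.3.3 (lmFit, eBayes with a trend) was also run on simulated data. The changes drawn there were larger than nearly all seen here, so that run does not show the power of limma in these data. Python 3.11.15, numpy 2.4.6, pandas 2.3.3 and matplotlib 3.10.9 did the rest. Named were all MYC sgRNAs, other gene-named sgRNAs outside the middle 98% of the non-targeting ones on the same side in both replicates, and, among sgRNAs beyond 1 with the same sign in both, the 5 lowest and 5 highest m6A-targeting and the 3 lowest and 3 highest non-targeting ones, with all sgRNAs of a named gene; other names were chosen after their values were seen. The samples, lists and tests were chosen with earlier results of these data known. Results of some gene-named sgRNAs are not reported here. Gene positions came from a GRCh37 annotation, the build used for sgRNA design. Alternatives were other pseudocounts, a filter at a mean of 200, other scalings, other limma fits and leaving out each library. PCR reads carried no molecular identifiers and are not separate molecules, so the counting errors given cover counting alone.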

Additional observations from a re-analysis of the deposited data

How the results depend on the processing

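Pseudocounts of 0.5 and 10, a mean of at least 200 and rescaling to the same total or non-targeting median kept the counts of sgRNAs beyond 1 and called by limma within 1.5 times. Under the pseudocounts and the filter, the SD of the mean LFC over non-targeting sgRNAs was 0.245 to 0.247, against 0.247. That of the difference between the day 30 replicates was 0.484 to 0.491, against 0.491. Neither SD was computed under rescaling. When each library of days 20 and 30 was left out in turn, the number below −1 ranged from 23 to 90 and that above 1 from 6 to 28, against 12 and 1, the SD of the mean LFC over non-targeting sgRNAs from 0.285 to 0.353, against 0.247, and the number called lower from 0 to 1. The replicate block over days 10, 20 and 30 called 0 in both directions, as did limma without the trend and the 4 libraries without a block. With that block over 3 days, the lowest limma adjusted p was 0.276. An unadjusted p under 0.05 was then found for 12.9% of all sgRNAs and for 130 of the 1000 non-targeting ones. The replicate block over the 4 libraries called 18 lower and 78 higher. Replicate numbers are shared by the days without a stated pairing, and the differences between replicates at days 20 and 30 correlated at 0.636. Tests on whole reads were not run, because the deposited values are normalized, and the read counts given rest on a step found in the values.

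Of the 486 values of named sgRNAs under alternatives, 17 changed sign. Rescaling to the same total gave −0.0144 for AAVS1_2 and −0.0167 for 2bc10018_AAC_5.8. A left-out library also breaks the pairing by replicate number. Leaving out 1 library gave ranges of −0.0665 to 0.47 for 2bc27910_AAC_15.6, −0.13 to 0.17 for AAVS1_2, −0.60 to 0.0227 for CDK6-1, −1.19 to 0.11 for MYC-1, −0.10 to 0.14 for 2bc10018_AAC_5.8, −0.11 to 0.68 for TGFB1-1, −0.82 to 0.30 for CDK5-3, −0.11 to 0.39 for MYB-4, −0.0232 to 0.30 for BAP1-1, −0.44 to 1.05 for MYC-4 and −0.28 to 0.16 for puro-Trp(76). With 2 libraries a day, changes smaller than the spread between replicates could not be told apart from it.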
